A study of Fukomys damarensis with 47 samples.

Results

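The genes described here are 150 genes whose expression followed that of COL1A1, the alpha-1 chain of type I collagen and the main protein of bone matrix, across cultures of Damaraland mole-rat bone marrow cells. They are the 150 genes with the highest Spearman correlation with COL1A1 over the 47 libraries, on log2(CPM + 1), out of 11047 genes that reached 2 CPM (counts scaled to a common total for each library) in 25% or more of the 47. Those 11047 genes were the part of the 33562 genes in the count table that passed this filter. COL1A1 itself, PHEX, CTSK, ENG, TGFBR3 and genes whose symbols begin with COL, LAM, ITG, ADAM, MMP, LOX, BMP or IGF were left out by rule. The members were chosen by their correlation with COL1A1 over all these libraries, so that their closeness to COL1A1 is a description and not a finding.

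RNA-Seq was carried out on cells grown from the bone marrow of 16 adult female Damaraland mole-rats (Fukomys damarensis), aged 1003 to 1232 days, of 8 natal colonies. The 5 queens were breeders, and the 11 nonbreeders were 7 helpers that lived in a colony and 4 solitaires. Median ages were 1006 days in queens, 1076 in helpers and 1177 in solitaires. Marrow came from pooled long bones (16 animals, 26 libraries) or from lumbar vertebrae (LV; 14 animals, 21 libraries), and the adherent cells were grown in medium with basic fibroblast growth factor, with a ROCK inhibitor at the start, until clusters of bone marrow-derived mesenchymal stromal cells were visible. Each culture then received 10 nM estradiol or vehicle for 24 hr, so that a library is a mixed culture and not a sorted cell type. The groups held 5 vehicle and 4 estradiol libraries of queens and 11 and 6 of nonbreeders in long bones, and 3 and 3 of queens and 10 and 5 of nonbreeders in LV. Total counts ranged from 5329563 to 16327339 per library.

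Type I collagen is made by osteoblasts, and also by fibroblasts and stromal cells that have not become osteoblasts. Collagen chains are assembled and folded in the endoplasmic reticulum, carried through the Golgi apparatus and secreted, and transforming growth factor-beta (TGF-beta) is a well-known inducer of collagen and of the contractile actin genes in mesenchymal cells. Because the samples are bulk cultures, fewer cells of a type and less RNA per cell cannot be told apart for any gene below.

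Correlations of the members with COL1A1 ran from 0.790 to 0.911, with a median of 0.819, against a median of −0.0157 over all genes tested, of which 49.0% were positive. The edge was not marked by a gap: the last member, ENSFDAG00000015752, had a correlation of 0.7897, and the first gene outside, ENSFDAG00000008519, had 0.7895. MMP2, a gelatinase (0.876), and COL8A2, a type VIII collagen chain (0.806), lay above the edge and were left out by the rule on symbols. Symbols were known for 12 of the 150 members. Another 3 fell within the 1594 identifiers for which names were used but had no gene symbol, and 135 lay outside them, so that collagen or integrin genes without a symbol may be among the members. Identifiers in this range made up 12.5% of the genes tested and 10% of the members. The member closest to COL1A1, ENSFDAG00000012807 (0.911), has no symbol among the names used here.

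The 12 named members fall into 4 kinds. TGFB3 (0.872), a ligand of the TGF-beta family, and SCUBE3 (0.811), a secreted glycoprotein that acts as a co-receptor for TGF-beta family ligands, are signalling proteins. CNN1 (0.844), the calponin of smooth muscle that binds actin, and ADD2 (0.795), an adducin of the membrane skeleton, belong to the cytoskeleton. COPZ2 (0.801), a subunit of the coat of Golgi vesicles, and TBC1D10A (0.834), which switches off Rab proteins, act in vesicle traffic. EIF4G1 (0.799), the scaffold of the cap-binding complex of translation, HDLBP (0.797), the RNA-binding protein vigilin, UBE2O (0.819), a ubiquitin-conjugating enzyme, KCTD15 (0.86), a BTB-domain protein that restrains transcription factor AP-2, ABCB6 (0.835), a porphyrin transporter, and PFKFB2 (0.83), which sets the level of the glycolytic activator fructose-2,6-bisphosphate, act inside the cell.

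Members chosen for a high correlation with 1 gene must also correlate with one another, so the values between them are a description of the choice. Over the 11175 pairs of members the median Spearman correlation was 0.824 and the lowest was 0.490; between members and all other genes the median was −0.0316. The members varied more than a typical gene: the median SD over the 47 libraries was 0.90 on the log2 scale for the members and 0.51 for all genes tested, and the median distance from the lowest to the highest library was 4.05 and 2.43. Correlations with COL1A1 in subsets of the libraries are not independent of the choice. They had a median of 0.865 in the 26 long bone libraries, 0.777 in the 21 LV libraries, 0.798 in the 29 vehicle libraries and 0.841 in the 18 estradiol libraries. SCUBE3 differed most among the named members between the bones, at 0.938 in long bones and 0.568 in LV, while CNN1 had 0.871 and 0.905. When the 150 genes were chosen in LV alone, 41 of the members were chosen again, and in long bones alone 87 were.

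The label of COL1A1 as an osteoblast gene was checked against other bone genes. Of the 7 further genes tested from a list of osteoblast and bone mineral genes, 5 correlated positively with COL1A1, with a median of 0.117. In long bone libraries alone 4 of the 7 were positive, with a median of 0.334, against −0.092 over all genes. In LV libraries alone 5 were positive, with a median of 0.471, against 0.133 over all genes. The list could hold only genes with a symbol here, so this check is partial. DDR2, a collagen receptor, had 0.716, whereas PHEX, an endopeptidase of osteoblasts and osteocytes, had −0.119, and SERPINF1, a secreted protein of bone matrix, had 0.117. None of the 7 was a member. The genes are named here by COL1A1, not by a cell type.

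Gene lists were set against COL1A1 across the cultures, as a description without a test. Of 17 genes of secreted matrix, 16 correlated positively (median 0.387), with THBS1, thrombospondin 1, at 0.471 and LTBP1, which holds latent TGF-beta in the matrix, at 0.614. Of 21 actin and contractile genes, 17 were positive (median 0.432), among them CSRP1 (0.740), a LIM protein of the cytoskeleton, and the myosin light chain MYL9 (0.253). Of 14 genes of growth factor signalling, 12 were positive (median 0.373), among them the receptor FZD4 of Wnt proteins (0.609). In long bone libraries alone 16 of 17 matrix, 16 of 21 actin and 11 of 14 growth factor genes were positive. In LV libraries alone 11, 14 and 10 were, where the median over all genes was 0.133. Without the 3 libraries of MAF006 the counts were 13, 17 and 12. The secretory pathway list, 26 genes, was divided, with 11 positive and 15 negative genes (median −0.166), although COPZ2 is a member.

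All 20 genes of the cell cycle list correlated negatively with COL1A1, with a median of −0.637. They included MCM6, a subunit of the replicative helicase (−0.777), RRM1, the large subunit of ribonucleotide reductase (−0.605), CKAP2, a spindle protein (−0.596), and PRC1, which organizes the spindle midzone (−0.437). CENPH, a kinetochore protein chosen here after its value was seen, had −0.846. The count was 20 of 20 in long bone libraries and 18 of 20 in LV libraries, 19 of 20 without the 3 libraries of MAF006, and 19 of 20 after TMM scaling. The 9 ribosomal protein genes with symbols, a list added after the correlations were seen, were negative in 9 of 9 (median −0.560). The endothelial list was positive in 7 of 7 genes (median 0.259), and the leukocyte list was negative in 17 of 22 (median −0.445), with LAPTM5 at −0.108 and CTSS at −0.517. These counts were 7 of 7 and 19 of 22 in long bone libraries, and 6 of 7 and 13 of 22 in LV libraries. The remaining lists were mixed: glycosaminoglycan synthesis was positive in 6 of 10, mesenchymal transcription factors in 9 of 11, osteoclast genes in 3 of 4 and adipocyte genes in 2 of 5.

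**Figure D1:**
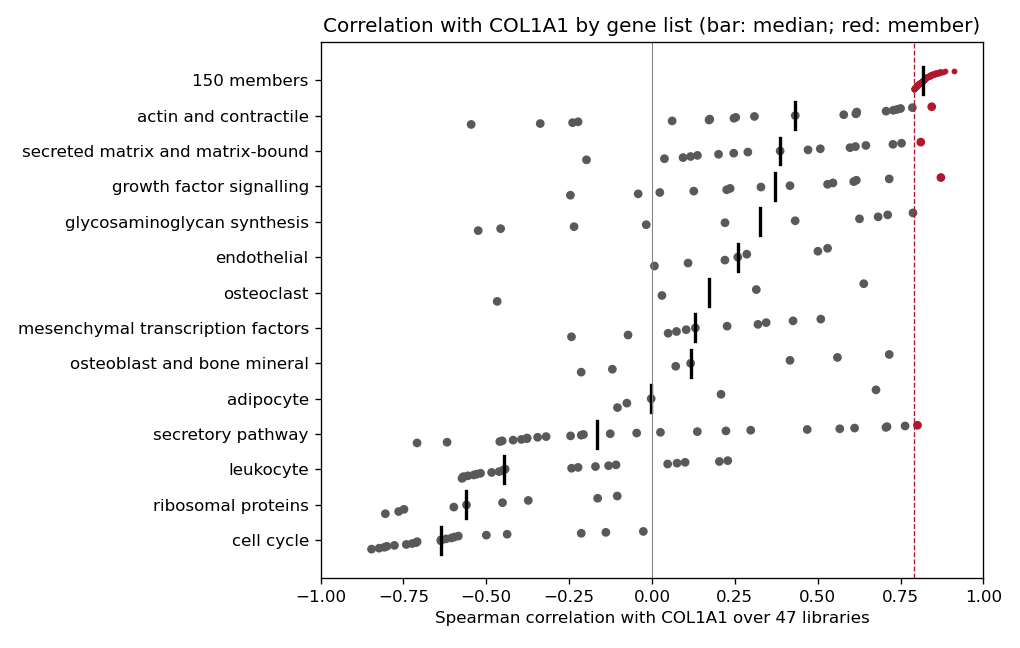
Spearman correlation with COL1A1 over the 47 libraries (x axis) for the genes of each list (rows, ordered by median), with the 150 members in the top row. Each point is a gene, black bars are medians, red points are members, and the dashed line is the lowest correlation of a member; the cell cycle list lies wholly to the left of 0 and the actin, matrix and growth factor lists mostly to the right.

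The level of the members in a library was summarised as the mean, over the 150 genes, of the difference between log2(CPM + 1) in that library and the gene's own mean over the 47 libraries (module level). It ran from −1.93 to 1.65. The lowest libraries were the vehicle culture of the queen MAF006 from long bones (−1.93), the vehicle culture of the nonbreeder WEF001 from LV (−1.57), and the other 2 cultures of MAF006, with estradiol, from long bones (−1.52) and LV (−1.50). The highest were the long bone cultures of the queen DVF007 (vehicle, 1.65), the queen LAF007 (estradiol, 1.49) and the nonbreeder DVF008 (vehicle, 1.37). Queens thus held both ends of the order.

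COL1A1 made up 0.00297% to 0.225% of the counts of a library. In the lowest MAF006 culture its level, log2(CPM + 1), was 4.94, and in the highest culture, of DVF007, it was 11.14. The LV culture of MAF006 was an exception to the close match, with COL1A1 at 8.08, near the median over libraries of 8.34, but a module level of −1.50.

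The summed level of the cell cycle genes was high where the members were low. It was 2576 CPM in the lowest library, 2540, 1524 and 3129 CPM in the next 3, and 535 CPM in the highest library, with 929 and 731 CPM in the 2 below it. Over the 47 libraries the Spearman correlation of this sum with the module level was −0.754, and that of the summed ribosomal protein genes was −0.770. The points share animals, and all are scaled to the same total of counts, so that no p-value is given. Depth moved with the members as well, with a correlation of 0.428 between total counts and module level, and its part in the module level was not tested.

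Leukocyte markers were also uneven. Their sum reached 5003 and 5734 CPM in the 2 long bone cultures of MAF006 and 1667 CPM in its LV culture, against a median of 494 CPM over the 47 libraries, and it was 377 CPM in the highest library. Of the 22 leukocyte genes tested, 14 were above 0 in all 47 libraries, LAPTM5 and CORO1A among them, and no gene was at 0 in more than 5 libraries. The correlation of the leukocyte sum with the module level was −0.198. In long bones the sum ran from 358 to 5734 CPM in queens (median 764) and from 158 to 2118 CPM in nonbreeders (median 544); in LV it ran from 116 to 1667 CPM in queens (median 348) and from 126 to 1365 CPM in nonbreeders (median 347). Of 22 leukocyte genes tested, 0 passed the edgeR test between queens and nonbreeders. At an unadjusted p under 0.05, 12 were higher in queens in long bones, against 6.21% of all genes, and 9 in LV, against 2.63%. DESeq2 called 10 and 5 higher, where it called 3.54% and 0.95% of all genes in either direction. The leukocyte list was chosen with earlier results of these data known, so these shares are a description and not a separate test. The part of leukocytes in the members' levels was not tested.

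**Figure D2:**
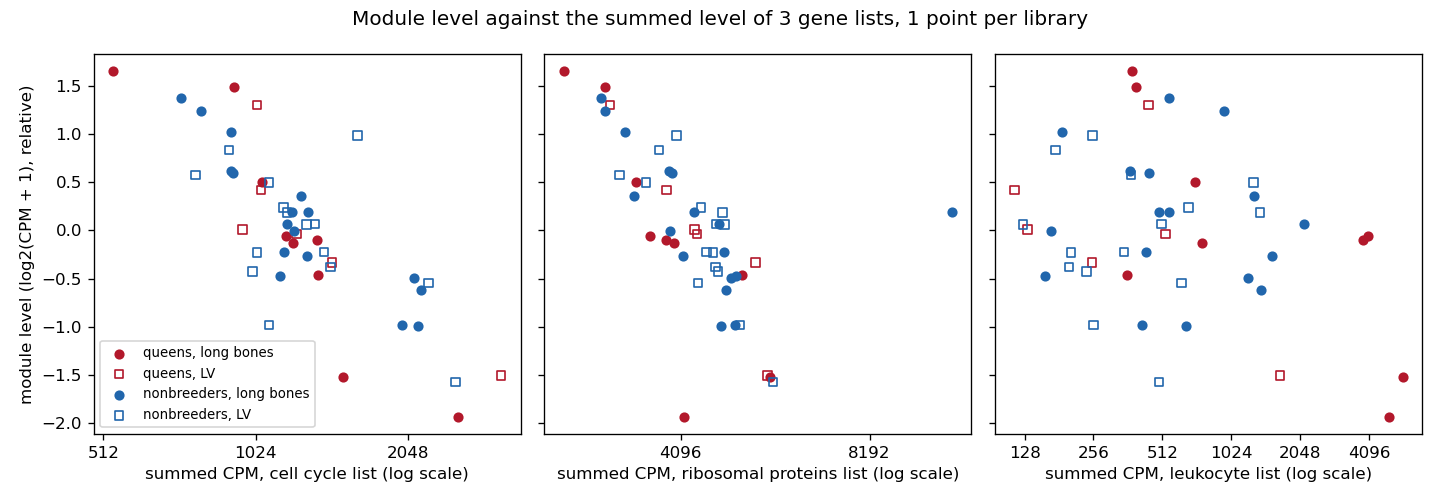
Module level (y axis, mean difference in log2(CPM + 1) from the 47-library mean) against the summed CPM of cell cycle, ribosomal protein and leukocyte genes (x axes, log scale). Each point is a library, coloured by status and filled for long bones; the lowest module levels lie at 1524 to 3129 CPM of cell cycle genes and the highest at 535 to 1031 CPM.

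Whether queens and nonbreeders differed in these genes was asked first in long bones. No member passed the test at a false discovery rate (FDR) of 10% (edgeR quasi-likelihood test with natal colony as a block, 16 animals), and 0% of the 11047 genes did. The fitted difference, queens minus nonbreeders, was negative for 115 of 150 members, with a median of −0.25 on the log2 scale, against 0.017 over all genes. Because the members move together by choice, counts of members by sign, here and below, do not count separate observations. At an unadjusted p under 0.05, 0 members were higher (6.21% of all genes) and 1 was lower (2.48% of all genes). With DESeq2, 391 genes (3.54%) and 0 members were called. The direction rested on the MA colony: without MAF006 or without its colony mate MAF003 the median was 0.11, and without the colony block it was 0.35, with 130 of 150 members higher in queens. With no filter on low counts, 13 members (8.67%) were called lower in queens, against 4.15% of the 24430 genes then tested.

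With the mean of an animal's libraries in a bone as 1 value, the module level in long bones was −1.72 in MAF006, −0.082 in NOF009, 0.18 in WAF014, 0.51 in LAF007 and 1.65 in DVF007. Nonbreeders ran from −0.99 to 1.31 (median −0.0087), so that the range of the 5 queens contained that of the 11 nonbreeders. The means ± SD were 0.11 ± 1.22 (5 animals) for queens and 0.015 ± 0.61 (11 animals) for nonbreeders; values with ± below are means and SD over animals. In the 5 colonies with both, the queen was higher in DV (by 0.34) and LA (by 0.52), and she was lower in MA (−1.50), NO (−0.29) and WA (−0.093). Helpers and solitaires had means of 0.15 ± 0.60 (7 animals) and −0.22 ± 0.65 (4 animals). They came in part from different colonies and differed in age, and these means take neither into account.

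Among the 150 members, MAF006 was the lowest animal in long bones for 117, and DVF007 the highest for 127. The queens' range contained the nonbreeders' range for 98 members, or 65.3%, against 22.6% of all genes tested. In LV it did so for 42, or 28%, against 11.7%. COL1A1, which the members were chosen to follow, was itself lowest in MAF006 (5.19) and highest in DVF007 (11.14) in long bones. These counts therefore describe the choice of members and are not separate evidence on status. No member separated the animals by status in either bone. Over all genes, queens lay wholly above nonbreeders for 0.0272% in long bones and 0.127% in LV, and wholly below for 0.0543% and 0.0724%.

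In LV, too, no member passed the test (14 animals, 4 queens), nor did any other gene (0%). The fitted difference was negative for 133 of 150 members, with a median of −0.19, against 0.010 over all genes. At an unadjusted p under 0.05, 0 members were higher (2.63% of all genes) and 0 were lower (0.797%). DESeq2 called 105 genes (0.95%) and 0 members. In vehicle libraries alone, which leaves out the 8 estradiol libraries and with them MAF006, the median turned to 0.22, with 129 of 150 members higher in queens. Without MAF006 alone it was −0.077, with 102 of 150 lower, and without WAF014 it was −0.49. With no filter on low counts, 1 member (0.667%) was called, lower in queens, against 1.58% of all genes.

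The module level of queens in LV was −1.50 in MAF006, −0.33 in LAF007, 0.21 in DVF007 and 0.63 in WAF014. That of nonbreeders ran from −1.06 to 0.57 (median 0.11). The groups overlapped, with means of −0.25 ± 0.93 (4 animals) and −0.092 ± 0.56 (10 animals). The queen was higher than her colony mate in WA (by 0.43) and lower in DV (−0.16), LA (−0.40) and MA (−0.52); NOF009 had no LV library. Helpers and solitaires had means of 0.13 ± 0.27 (6 animals) and −0.42 ± 0.76 (4 animals), again with neither colony nor age taken into account. MAF006 was the lowest animal for 94 members in LV, and G4F020 and WAF014 were the highest for 58 and 57.

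**Figure D3:**
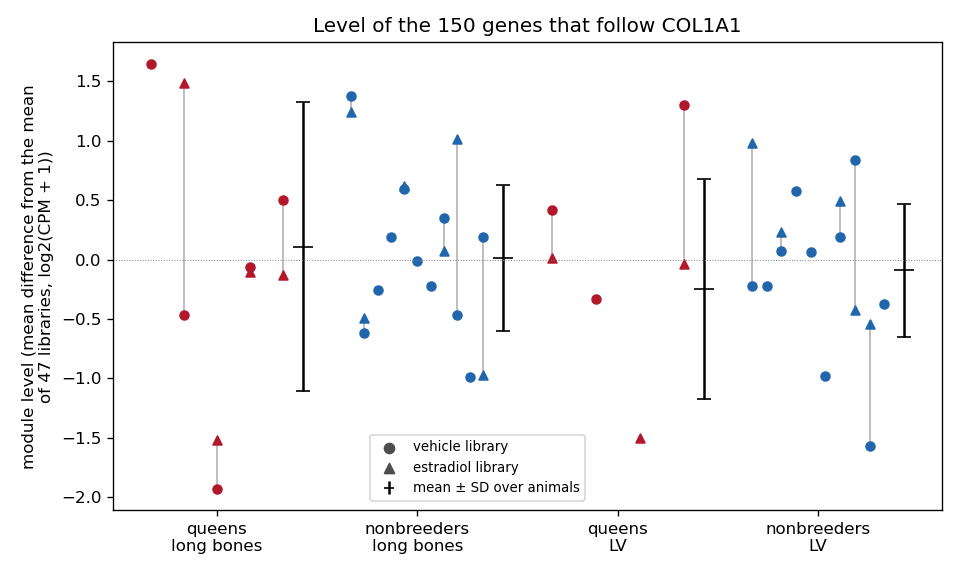
Module level (y axis) of each library by status and bone, with circles for vehicle, triangles for estradiol and grey lines joining the libraries of 1 animal. Black bars are the mean ± SD over animals; queens reach from −1.93 to 1.65 in long bones and overlap nonbreeders in both bones.

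The named members showed the same spread. Fitted differences below compare animals within a colony, whereas group means do not, so that their signs can differ. TGFB3 in queens' long bones was 2.03 in MAF006, 5.31 in NOF009, 6.36 in WAF014, 6.72 in LAF007 and 7.70 in DVF007, in log2(CPM + 1). In nonbreeders it ran from 4.13 to 7.38 (median 5.67). MAF006 was far below every other animal, and the other 4 queens lay within or just above the nonbreeders. The fitted difference was −0.60 (SE 0.58), with an edgeR adjusted p of 0.775. In LV, queens had 2.66 in MAF006, 5.20 in LAF007, 6.29 in DVF007 and 6.32 in WAF014. Nonbreeders there ran from 3.44 to 6.81 (median 5.81), and the difference was −0.66 (SE 0.50), with an adjusted p of 0.999.

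SCUBE3 was 0.12 in MAF006, 1.73 in NOF009, 2.42 in WAF014, 2.70 in LAF007 and 3.72 in DVF007 in queens' long bones, and it ran from 1.21 to 3.58 (median 2.06) in nonbreeders. The value of MAF006 is the mean of 0 with vehicle and 0.25 with estradiol, at the floor of counting. The difference was −0.40 (SE 0.58), smaller than its error. In LV, queens had 1.15 in MAF006, 1.62 in LAF007, 1.79 in DVF007 and 3.43 in WAF014, and nonbreeders ran from 1.13 to 4.05 (median 2.68). Here 3 of 4 queens lay below the nonbreeders' median, and the difference was −0.34 (SE 0.55).

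Of the cytoskeletal members, ADD2 in queens' long bones was 2.26 in MAF006, 5.09 in NOF009, 5.41 in WAF014, 5.88 in LAF007 and 6.81 in DVF007. Nonbreeders ran from 4.93 to 6.84 (median 5.82), and 3 of the 5 queens lay below that median. Its difference, −0.996 (SE 0.52), was the largest of the named members in long bones, with an adjusted p of 0.638. In LV, ADD2 was 5.26 in MAF006, 5.52 in LAF007, 5.59 in WAF014 and 6.16 in DVF007 in queens, and it ran from 4.57 to 6.15 (median 5.61) in nonbreeders (difference −0.24 (SE 0.19)). CNN1 in long bones was 0.23 in MAF006, 2.13 in WAF014, 2.14 in LAF007, 2.31 in NOF009 and 3.84 in DVF007. In MAF006 it was 0 with vehicle and 0.46 with estradiol, near the floor of counting. Nonbreeders ran from 0.29 to 3.81 (median 1.56), and the difference was 0.036 (SE 0.61). In LV, CNN1 was 0.20 in MAF006, 1.07 in LAF007, 1.27 in DVF007 and 2.64 in WAF014 in queens and 0.13 to 2.18 (median 0.90) in nonbreeders. The lowest of these values, 0.20 and 0.13, rest on few reads.

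Of the genes of vesicle traffic, COPZ2 had means of 5.01 ± 1.41 (5 animals) in queens and 5.12 ± 0.54 (11 animals) in nonbreeders in long bones, and of 5.06 ± 1.13 (4 animals) and 5.22 ± 0.49 (10 animals) in LV. TBC1D10A had 6.50 ± 1.70 (5 animals) and 6.39 ± 0.88 (11 animals) in long bones, and 5.64 ± 1.63 (4 animals) and 6.14 ± 0.97 (10 animals) in LV. For both genes the SD was larger in queens than in nonbreeders in each bone, and MAF006 was the lowest queen (2.60 for COPZ2 and 3.67 for TBC1D10A in long bones).

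Among the other members, HDLBP had the second smallest adjusted p of the named members in long bones. It was 7.05 in MAF006, 8.23 in LAF007, 8.52 in WAF014, 8.53 in NOF009 and 9.20 in DVF007 in queens, and it ran from 7.94 to 9.07 (median 8.49) in nonbreeders, with a difference of −0.41 (SE 0.22) and an adjusted p of 0.659. EIF4G1 had means of 7.31 ± 1.29 (5 animals) and 7.06 ± 0.75 (11 animals) in long bones, higher in queens, while the fitted difference within colonies was −0.053 (SE 0.27). KCTD15 had 3.58 ± 1.25 (5 animals) and 3.55 ± 0.62 (11 animals) there, and UBE2O had 3.83 ± 0.78 (5 animals) and 3.57 ± 0.61 (11 animals). ABCB6 had 5.99 ± 0.82 (5 animals) and 5.85 ± 0.48 (11 animals), and PFKFB2 had 2.82 ± 0.84 (5 animals) and 2.63 ± 0.60 (11 animals). In LV the differences of these 6 genes lay between −0.29 (SE 0.25) for ABCB6 and 0.059 (SE 0.31) for PFKFB2. COL1A1 itself differed by −0.39 (SE 0.55) in long bones and 0.20 (SE 0.31) in LV, with adjusted p of 0.843 and 0.999.

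**Figure D4:**
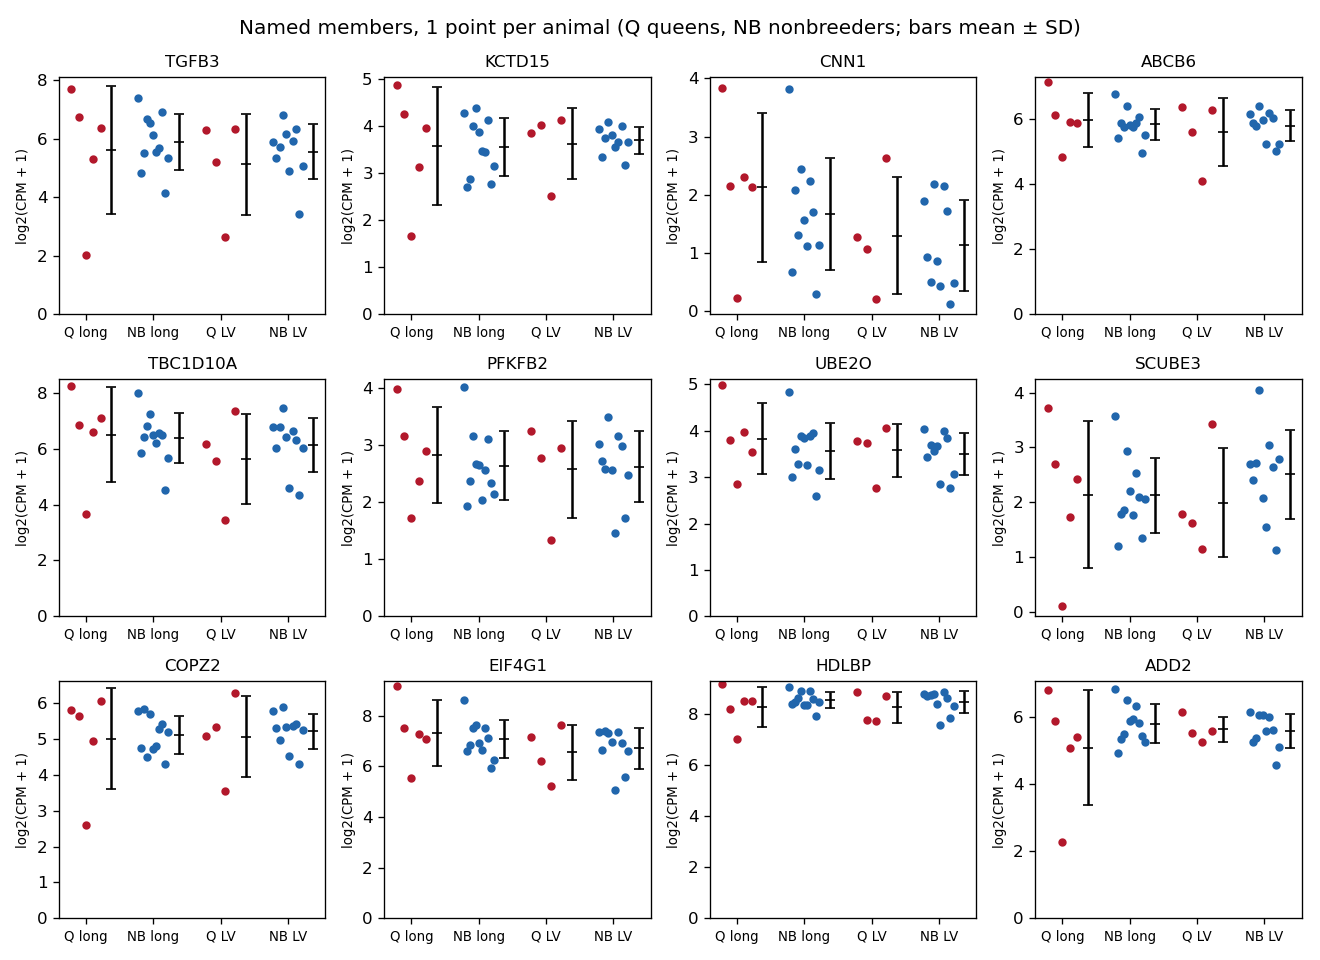
Level, log2(CPM + 1), of the 12 named members (y axes), with 1 point per animal and bone, in queens (Q) and nonbreeders (NB) from long bones and LV. Black bars are the mean ± SD; queens and nonbreeders overlap for each gene in both bones, and the queens' range contained the nonbreeders' range for 9 of the 12 genes in long bones.

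Whether the bones differed was asked within animals, in the vehicle cultures of the 13 animals with both. No member passed the test at an FDR of 10%, whereas 755 of 11047 genes, or 6.83%, did. The fitted difference, LV minus long bones, was negative for 140 of 150 members, or 93.3%, against 56.0% of all genes, and its median was −0.24, against −0.037 over all genes. At an unadjusted p under 0.05, 5 members were lower in LV (9.48% of all genes) and 0 were higher (6.85%). The smallest adjusted p of a member was 0.136. The estimates were thus mostly higher in long bones of the same animals, and no single member passed the test. The members were chosen to follow 1 gene and move together, so the 140 are not separate observations. The count of calls moved with the setting. Without WAF011, 13 members (8.67%) were called lower in LV, against 12.5% of all genes, and the median was −0.36. With the libraries of both treatments added, 11 members (7.33%) were called, against 19.7% of all genes. DESeq2, the fit without WAF014 and the fit with no filter each called 1 member (0.667%), against 9.69%, 6.87% and 4.21% of all genes. In each of these 5 fits a smaller share of the members than of all genes was called.

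Within animals, the module level in vehicle cultures was lower in LV in 8 of 13 animals and higher in 5, with a mean difference of −0.21 ± 0.77 (SD). The difference was most negative in DVF008 (−1.60) and DVF007 (−1.23) and most positive in WAF011 (1.30). Among the named members, CNN1 had the largest difference, −0.96 (SE 0.47) with an adjusted p of 0.329, and it was lower in LV in 10 of 13 animals. Its level was low, with a mean of 1.59 log2(CPM + 1) over the 47 libraries. TGFB3 differed by −0.48 (SE 0.20), TBC1D10A by −0.49 (SE 0.27), EIF4G1 by −0.49 (SE 0.27) and ADD2 by −0.32 (SE 0.13). TGFB3, TBC1D10A, EIF4G1 and ADD2 were each lower in LV in 9 of 13 animals, and their adjusted p ran from 0.197 to 0.386. KCTD15, ABCB6, UBE2O, COPZ2 and HDLBP had differences between −0.17 and −0.11. SCUBE3 had 0.097 (SE 0.39), and PFKFB2 was higher in LV in 7 of 13 animals and lower in 6. COL1A1 differed by −0.51 (SE 0.24), with an adjusted p of 0.299.

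Genes of the lists are given beside the 6.83% of all genes that passed the test between the bones. The lists were chosen with earlier results of these data known, so the counts are a description. Of the 17 secreted matrix genes, 1 was higher in LV (SPOCK3) and 2 were lower (ANOS1 and FLRT2). Of the 14 growth factor genes, FGFR1 was higher in LV, and ACVR2A, an activin receptor, and IL1R1, an interleukin-1 receptor, were lower. Of the 21 actin genes, FHL2 and FILIP1L were higher and TPM3 was lower. Of the 11 mesenchymal transcription factors, ZEB1 and HOXC9 were higher in LV, and SIX2 and TCF7L1 were lower. PPARG of 5 adipocyte genes and RHOJ of 7 endothelial genes were lower, and ATP6V1D of 4 osteoclast genes was higher. No gene of the secretory pathway, glycosaminoglycan synthesis or ribosomal protein lists passed. Leukocyte genes were lower in LV in 8 of 22 and higher in 0, and 1 cell cycle gene of 20, FAM83D, was lower, a share of the list below that of all genes. Of the 8 osteoblast and bone mineral genes, COL1A1 included, 2 were higher in LV, PHEX by 0.62 (SE 0.17, edgeR adjusted p = 0.0467) and FGFR1 by 0.98 (SE 0.27, adjusted p = 0.0522), and 0 were lower. The part of leukocytes in the members' estimates was not tested. Vertebrae, unlike long bones, were treated with collagenase, so that bone and preparation cannot be told apart.

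Whether the queen effect differed between the bones was tested as the interaction of status and bone in 14 animals. No member passed, and 0% of all genes did. The interaction, the queen effect in LV minus that in long bones, was negative for 125 of 150 members, with a median of −0.36, against −0.028 over all genes. At an unadjusted p under 0.05, 2 members were lower (2.35% of all genes) and 0 were higher (2.53%). The result depended on WAF014: without this queen, 31 members (20.7%) were called, all lower, against 9.89% of all genes, and the median was −0.79. In vehicle cultures the module level of WAF014 was higher in LV than in long bones by 0.80 and that of LAF007 by 0.13, while that of DVF007 differed by −1.23. Without LAF007 the median was −0.066, and without DVF007 it turned to 0.080. DESeq2 called 3 genes (0.0272%) and 0 members.

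Estradiol for 24 hr was compared with vehicle in cultures of the same animal and bone. No member passed the test in long bones (10 animals) or LV (7 animals), and 0% of all genes did in either. In long bones the median difference of the members, estradiol minus vehicle, was 0.16, with 130 of 150 positive; without LAF007 it was −0.036, and without WAF011 it was −0.017. In LV it was −0.090, with 106 of 150 negative, and without WAF011 or WAF014 it was 0.14. At an unadjusted p under 0.05, 0 members were called in either bone, against 0.824% of all genes higher and 0.344% lower in long bones, and 0.38% and 0.118% in LV. DESeq2 called 5 genes in long bones (0.0453%) and 6 in LV (0.0543%), with 0 members in each.

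Cultures of the same animal and bone could be far apart. The module level changed by 1.95 in LAF007 (from −0.46 with vehicle to 1.49 with estradiol) and by 1.49 in WAF011 (from −0.47 to 1.02), both in long bones. In WEF002, long bones, it changed by −1.16, and in WAF014, LV, by −1.34. Other pairs were close, such as G4F020 (0.022) and NOF009 (−0.042) in long bones. The SD of the paired differences, queens included, was 0.93 in long bones and 1.01 in LV. The SD of the animals' levels was 0.61 and 0.56 in nonbreeders and 1.22 and 0.93 in queens. These kinds of SD cannot be compared directly. A difference carries the spread of both libraries, whereas the level of an animal is a mean over its libraries. The differences went up in 5 of 10 animals in long bones and in 4 of 7 in LV.

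**Figure D5:**
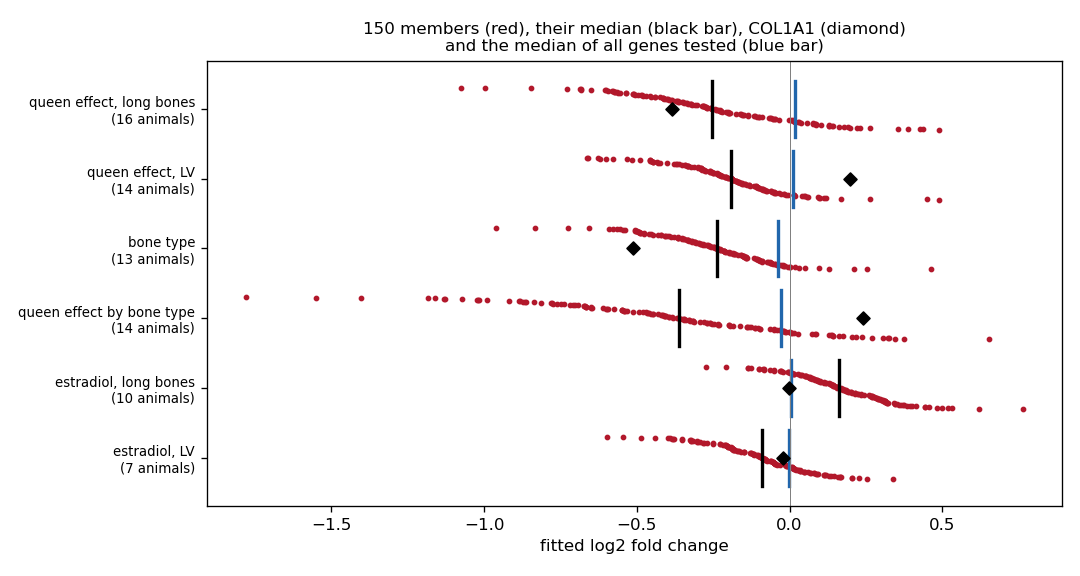
Fitted log2 fold change (x axis) of the 150 members (red points) in each of the 6 comparisons (rows), with the median of the members (black bar), the median of all 11047 genes (blue bar) and COL1A1 (diamond). The members' medians run from −0.36 to 0.16, and no member passed the FDR of 10% in any of the 6.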

How the data were processed

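RNA was measured in 47 cultures of 16 animals. Reads were trimmed with cutadapt 2.3, mapped to the DMR_v1.0 genome with STAR and counted per gene with HTSeq by the authors, who deposited raw counts; single counts are whole reads, and the strand setting is not given in the sources used here. Gene symbols came from the part of the study's gene table used here (1594 identifiers). The reference gene table matched no identifier, and no sequence was used. Of the columns, 0 could not be assigned to a sample.

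The correlation used log2(CPM + 1) with genes of at least 2 CPM in at least 25% of libraries. For status and its interaction with bone, counts of an animal were summed within a bone over both treatments. The test between the bones used vehicle libraries, and the estradiol tests used single libraries. Counts were compared with edgeR 4.0.16 (quasi-likelihood, TMM, two-sided, Benjamini-Hochberg over 11047 genes, FDR 10%) in R 4.3.3. Status was fitted with natal colony as a block, and the other comparisons had animal as the block. The study's own model also included days in culture and relatedness, which were not fitted here. Colony was read from the letters that begin an animal's name. Deviations from the status mean correlated at 0.226 to 0.836 between the 8 pairs of colony mates in long bones and at 0.276 to 0.626 between the 6 pairs in LV. Settings changed in turn were the size factors, the filter, DESeq2 1.42.0, the block, the treatments and each animal. Each named gene is a member with a symbol, the first or last member or COL1A1; up to 4 examples per list were taken by mean level, unless stated. Genes of a list that passed a test and the other examples were chosen after their values were seen. Members and lists were chosen with earlier results of these data known. P-values of the status tests rest on the spread between animals within a colony. Those of the other tests rest on how much the difference within an animal varied between animals.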

Additional observations from a re-analysis of the deposited data

Results flagged for a closer look

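Of 48 groups of 4 to 10 animals examined for the module level, COL1A1, the 12 named members and 2 members without symbols, 1 held an animal set apart from the rest by Dixon's test, where chance gives about 1 in 20. In queens' LV, the member ENSFDAG00000012807 was at 3.50 log2(CPM + 1) in MAF006, and the nearest of the other 3 queens was at 4.79, a gap of 0.87 of the whole range. The LV culture of MAF006 is a single library, with estradiol.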

How the results depend on the processing

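No member was called under DESeq2 size factors, filterByExpr or the fit with no replicate block in any of the 6 comparisons. The replicate block thus changed no call of a member, but it did change calls over all genes. Between the bones 755 genes were called with the block and 251 without it, and for queens in long bones 0 and 1. Other settings gave calls, all of them lower: with no filter on low counts 13 members in long bones (8.67%, against 4.15% of all genes) and 1 in LV (0.667%, against 1.58%) between queens and nonbreeders, and 1 between the bones (0.667%, against 4.21%); between the bones 1 with DESeq2 (against 9.69% of all genes) and 11 with both treatments added (7.33%, against 19.7%). Leaving out 1 animal gave 0 to 13 called members between the bones (at most 8.67%, against 12.5%) and 0 to 31 for the interaction (at most 20.7%, against 9.89%). With no replicate block the members' median difference was 0.35 in long bones, −0.026 in LV and −0.28 between the bones. Of the 150 members, 130 were chosen again with TMM scaling, 101 in vehicle libraries, 89 by Pearson correlation, 88 over means of an animal and bone, 87 in long bones and 41 in LV; without 1 animal, 112 to 143 were. The cause was not tested.

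Single genes changed sign as follows. For queens in long bones with no replicate block the log2 differences were COL1A1 0.83, TGFB3 0.36, KCTD15 0.26, ABCB6 0.27, TBC1D10A 0.50, PFKFB2 0.31, UBE2O 0.33, SCUBE3 0.45, COPZ2 0.15, EIF4G1 0.60, ENSFDAG00000012807 0.36 and ENSFDAG00000015752 0.23; CNN1 was −0.00363 with no filter, −0.049 with DESeq2 and −0.011 in vehicle libraries. For queens in LV with no replicate block they were KCTD15 0.000952, CNN1 0.41, UBE2O 0.14, COPZ2 0.0298 and ENSFDAG00000012807 0.10, and in vehicle libraries TGFB3 0.0651, KCTD15 0.13, CNN1 0.69, ABCB6 0.14, TBC1D10A 0.0422, UBE2O 0.27, SCUBE3 0.25, EIF4G1 0.28 and ENSFDAG00000012807 0.14. Between the bones, with both treatments added, KCTD15 was 0.00827, PFKFB2 −0.18 and COPZ2 0.0104; PFKFB2 was −0.000323 with filterByExpr. Without 1 animal the ranges in long bones were COL1A1 −0.81 to 0.18, TGFB3 −1.01 to 0.00872, KCTD15 −0.59 to 0.11, CNN1 −0.30 to 0.37, ABCB6 −0.26 to 0.14, TBC1D10A −0.48 to 0.33, PFKFB2 −0.30 to 0.0168, SCUBE3 −0.82 to 0.0915, COPZ2 −0.50 to 0.28, EIF4G1 −0.33 to 0.23 and ENSFDAG00000012807 −0.59 to 0.0584. In LV they were COL1A1 −0.0589 to 0.49, KCTD15 −0.37 to 0.0767, CNN1 −0.73 to 0.61, ABCB6 −0.49 to 0.000848, PFKFB2 −0.0117 to 0.13, UBE2O −0.17 to 0.0904, SCUBE3 −0.99 to 0.0954, COPZ2 −0.61 to 0.0421, EIF4G1 −0.43 to 0.12, HDLBP −0.18 to 0.0728 and ENSFDAG00000012807 −0.26 to 0.044, and between the bones PFKFB2 −0.12 to 0.14 and SCUBE3 −0.10 to 0.30. Each library held 5329563 counts or more, and this lowest total was that of the MAF006 long bone culture with estradiol. The number of queens, 5 in long bones and 4 in LV, limits the precision, and the part of depth was not tested.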
